A study of Homo sapiens with 9 samples.

Results

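Messenger RNA levels were compared between control cells labelled Huh-7, kept for 6 h in hypoxia (1% oxygen), and the same cells in normoxia. Huh-7 is a human hepatoma line, and the control cells stably carried a short hairpin RNA against GFP (shGFP), a sequence that human cells do not contain. The comparison was set by the array titles and rests on 2 of the 9 Illumina arrays of the series, 1 on each side. The title of the normoxia array gives both 6 h and 12 h, and it was taken as the partner of both hypoxia times. Whether it holds 1 culture or a pool, and when it was harvested, is not given. Time in culture may therefore enter each difference and cannot be told apart from hypoxia. The study asked how depletion of NDRG3 or of HIF-1α alters the response of these cells to low oxygen, and the 6 h pair is the earliest look at that response in cells with neither depleted.

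The arrays set beside this pair were, on the same platform, shGFP cells after 12 h of hypoxia, cells carrying a hairpin against NDRG3 (shNDRG3) after 6 h and 12 h of hypoxia, and cells carrying a hairpin against HIF1A (shHIF1A) after 12 h of hypoxia. A second platform held 3 arrays of its own, for shGFP cells kept in normoxia, for shGFP cells given 24 h of hypoxia and for shNDRG3 cells given the same. The hairpins against NDRG3 and HIF1A were delivered as lentiviral particles, per the labels' protocols. All cells are labelled as 1 line, so the values describe 1 labelled tumour line and not liver. Every group held 1 array. A difference between 2 arrays therefore has no replicate check and no test, and the words higher and lower below describe 2 arrays. Of 18153 genes in the deposited gene-level table, 11348 reached an intensity of 127.3 (the 40th percentile of the platform) on at least 1 of the 2 arrays and are called measured below. All differences are on the log2(intensity + 32) scale, hypoxia minus normoxia, so 1 stands for 2-fold, and the offset understates differences of dim genes. The median gene intensity lay between 169 and 173 on the 6 arrays of the first platform, whose values appear to have been normalized to 1 distribution, so each difference is relative to the other genes.

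Cells sense oxygen through prolyl hydroxylases of the EGLN family, which mark the alpha subunits of hypoxia-inducible factor (HIF) for destruction when oxygen is present. When oxygen is scarce the alpha subunit (HIF-1α, encoded by HIF1A, or HIF-2α, encoded by EPAS1) persists, pairs with ARNT and binds DNA at hypoxia response elements, whose core is spelled ACGTG or GCGTG. The genes switched on in this way move cells from respiration toward glycolysis, buffer acid, remodel collagen and call for blood vessels, and they include genes of the sensors themselves, so that the pathway limits itself. In hepatoma, which often grows beyond its blood supply, this programme has been studied as a source of growth and survival.

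The start regions of the genes with the largest differences show where that core sits. The windows run from 250 bases before to 50 after the annotated transcription start (RefSeq, GRCh38.p14), 5′ to 3′ on the strand of the gene, and capitals mark each match to ACGTG or GCGTG on either strand (CACGT and CACGC on the strand shown). PFKFB4 is shown because it had the largest difference, ANKRD37 and ALDOC because they hold several matches, and CA9 because its single match lies next to the start.
PFKFB4, chr3:48556754-48557053, minus strand: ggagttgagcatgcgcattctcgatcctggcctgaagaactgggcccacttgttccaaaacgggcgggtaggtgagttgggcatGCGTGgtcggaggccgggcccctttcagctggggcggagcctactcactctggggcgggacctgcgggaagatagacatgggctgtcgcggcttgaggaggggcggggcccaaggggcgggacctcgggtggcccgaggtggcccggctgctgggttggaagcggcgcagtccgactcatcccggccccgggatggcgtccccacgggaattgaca
ANKRD37, chr4:185396591-185396890, plus strand: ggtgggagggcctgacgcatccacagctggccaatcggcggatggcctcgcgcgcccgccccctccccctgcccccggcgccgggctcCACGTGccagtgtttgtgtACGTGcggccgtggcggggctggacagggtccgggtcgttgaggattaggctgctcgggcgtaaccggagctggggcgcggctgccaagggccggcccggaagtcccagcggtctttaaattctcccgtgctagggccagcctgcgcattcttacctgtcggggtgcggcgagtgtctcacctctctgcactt
CA9, chr9:35673678-35673977, plus strand: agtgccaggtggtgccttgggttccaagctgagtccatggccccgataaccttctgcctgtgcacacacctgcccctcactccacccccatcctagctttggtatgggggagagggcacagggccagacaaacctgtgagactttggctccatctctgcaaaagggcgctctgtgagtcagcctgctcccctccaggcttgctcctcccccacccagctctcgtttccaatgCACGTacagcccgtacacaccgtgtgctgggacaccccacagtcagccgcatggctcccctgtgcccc
ALDOC, chr17:28576846-28577145, minus strand: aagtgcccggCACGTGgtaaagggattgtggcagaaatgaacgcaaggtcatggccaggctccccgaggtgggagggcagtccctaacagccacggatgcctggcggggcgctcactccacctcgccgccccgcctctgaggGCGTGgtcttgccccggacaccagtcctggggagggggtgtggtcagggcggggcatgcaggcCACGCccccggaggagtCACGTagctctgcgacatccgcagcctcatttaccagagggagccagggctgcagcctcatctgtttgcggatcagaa
Counting the first base of the transcript as 0, the match in CA9 covers bases -18 to -14 and that in PFKFB4 bases -166 to -162. ANKRD37 has overlapping matches from -162 to -157 (the palindrome CACGTG) and another from -143 to -139. ALDOC has 5 matches, from -240 to -24. A match is a stretch of letters and not a measured binding site.

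Short cores of this kind are common in GC-rich promoters, so the share of genes that hold one was set beside that of all measured genes. Of the 102 genes at least 2-fold higher at 6 h (0.899% of measured genes), 78 had a window in the reference, and 56 of these (71.8%) held at least 1 match, against 5553 of 8922 measured genes (62.2%). For ACGTG alone the shares were 42.3% and 26.7%, and for 2 or more matches of either spelling 43.6% and 33.4%. The 95% interval of the 71.8% ran from 60.5% to 81.4% and holds the 62.2% of measured genes. For the 42.3% it ran from 31.2% to 54.0% and does not hold the 26.7%. No test was run on these shares. The median GC content of these windows was 68.2% for the higher genes and 65.0% for all measured genes, and how far GC content moves the shares was not tested. Among the 20 genes with the largest positive differences, 14 of the 16 with a window held a match. ERRFI1 and TMEM45A held none in this window, and elements farther from the start or inside the gene were not searched.

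Hypoxia of 6 h was marked by a small set of genes that were much higher and by very few that were much lower. At least 2-fold higher were 102 genes (0.899% of those measured), and at least 2-fold lower were 6 (0.0529%). At 4-fold the counts were 27 (0.238%) and 1 (0.00881%), the 1 being TFRC, and 6 genes (0.0529%) were at least 8-fold higher. At 3-fold 37 genes (0.326%) were higher and 3 (0.0264%) lower, and at 1.5-fold the shares were 2.31% and 1.13%, so the excess of higher genes was steep at the top and shallow further down. After subtraction of a background level from each array, 299 genes passed 2-fold on the higher side and 193 on the lower, so the excess also depends on how dim genes are treated. Over all measured genes the differences had a median of -0.02 and an SD of 0.29, with 1st and 99th percentiles of -0.61 and 0.93.

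With no replicate, the closest yardstick for the scatter between separate cultures was the shNDRG3 culture at the same time of hypoxia, although its difference from the shGFP culture holds the knockdown too. Between these 2 hypoxic cultures the median absolute difference over 11336 genes was 0.11 and its 99th percentile 0.56. At least 2-fold apart between those cultures were 5 genes in one direction (0.0441%) and 8 in the other (0.0706%), and the count of 6 genes lower at 6 h lies between these.

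**Figure D1:**
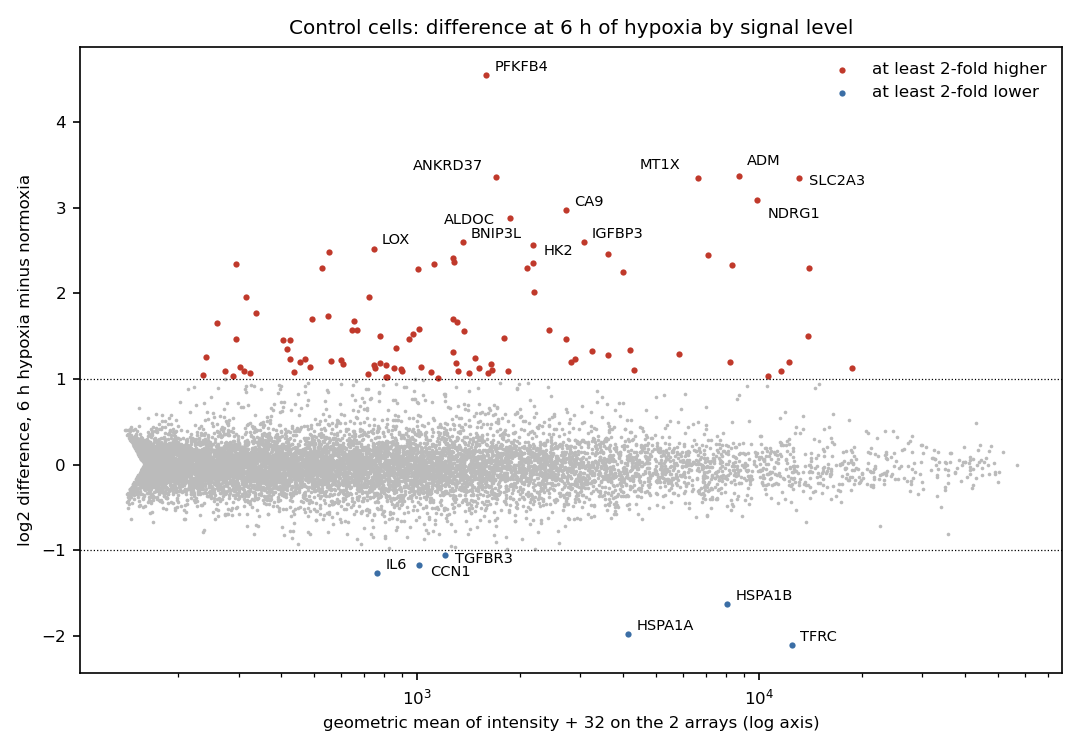
Difference at 6 h of hypoxia (y axis, log2) against signal (x axis, geometric mean of intensity + 32 on the 2 arrays, log axis), 1 point per measured gene of the 11348. Red points are the 102 genes at least 2-fold higher and blue points the 6 at least 2-fold lower; the red points are spread over most of the range of signal and reach 4.54 for PFKFB4.

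PFKFB4 makes the bifunctional enzyme that sets the level of the phosphofructokinase activator fructose 2,6-bisphosphate. It had an intensity of 297 in normoxia and 7624 at 6 h. The difference was 4.54, or 23.3-fold with the offset added to both readings. No other measured gene differed by as much, the next being ADM, which encodes the vasodilator peptide adrenomedullin, at 2669.7 and 27972 (difference 3.37). ANKRD37, a known HIF target that encodes an ankyrin repeat protein, was at 498 and 5414 (difference 3.36). These 3 genes were high on every hypoxic array of the platform, whichever hairpin the cells carried. For PFKFB4 those arrays read 8591 in shNDRG3 cells at 6 h, 10522 in shGFP cells at 12 h, 10824 in shNDRG3 cells at 12 h and 3814 in shHIF1A cells at 12 h, the last being the lowest of the hypoxic values.

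The other genes of the 20 with the largest positive differences lay between 3.09 for NDRG1 and 2.34 for ENO2, apart from MT1X (3.35) and SLC2A3 (3.34), and most belong to the groups described below. Outside those groups were ERRFI1, whose product is a feedback inhibitor of the epidermal growth factor receptor (1513 in normoxia and 8456 at 6 h, difference 2.46), TMEM45A (517 and 2896, difference 2.41) and PPFIA4, a liprin gene. PPFIA4 read 98.5 in normoxia, below the filter value, and 631 at 6 h, so its difference of 2.35 is set partly by background. SLC2A14, also among the 20 (2.48), is a near-identical copy of SLC2A3, and its probe may read SLC2A3.

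**Figure D2:**
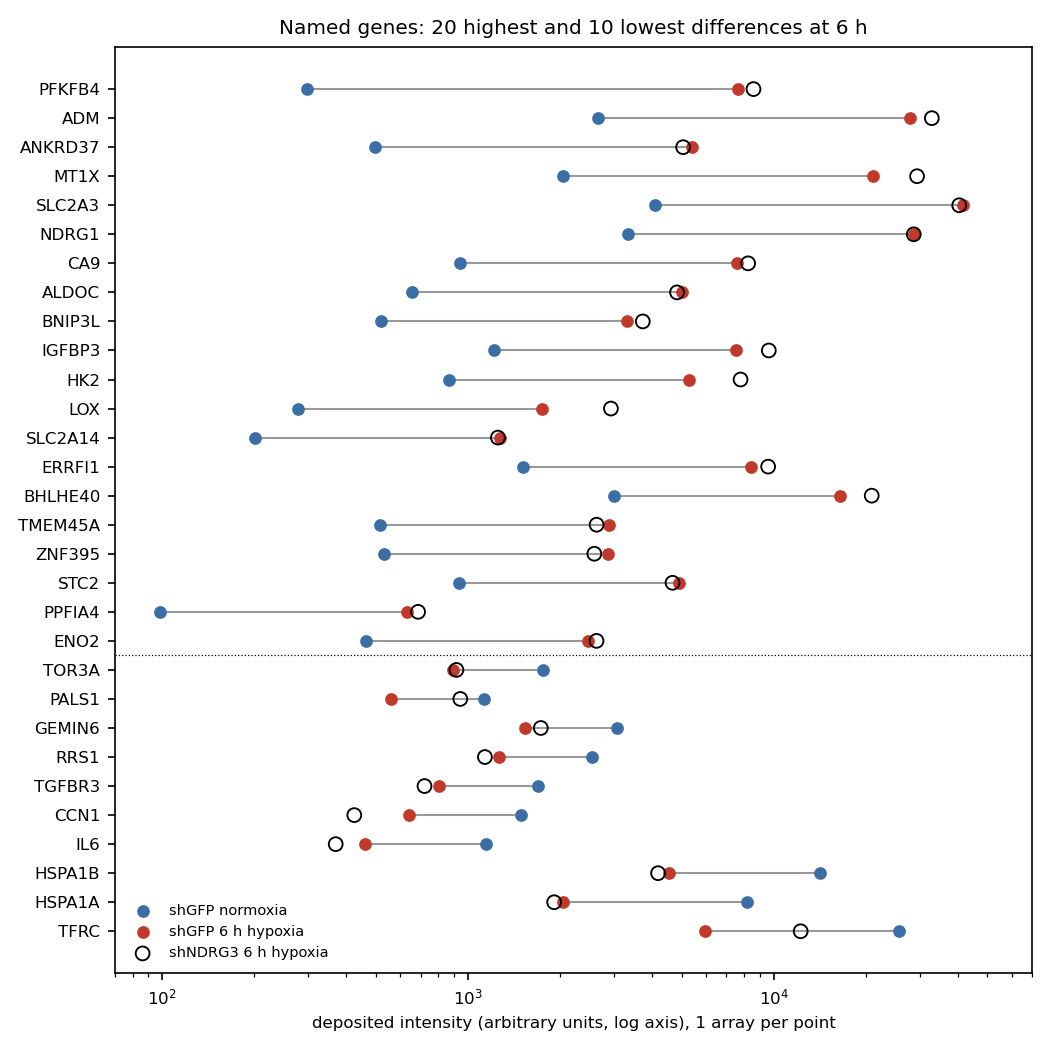
Deposited intensity (x axis, arbitrary units, log axis) of the genes with the 20 largest positive and 10 largest negative differences, 1 array per point: shGFP normoxia (blue), shGFP 6 h hypoxia (red) and shNDRG3 6 h hypoxia (open circles). For the 20 upper genes the open circles lie nearer the red points than the blue ones; among the lower genes the open circles of PALS1 at 944 and TFRC at 12256 lie well apart from the red points.

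Genes of oxygen sensing and of the HIF pathway, counted as 1 list, differed unevenly. Of 15 measured members of 16, 4 were at least 2-fold higher and 0 lower, against 0.899% and 0.0529% over all measured genes. The median difference was 0.34 against -0.02 over all measured genes. EGLN3, a prolyl hydroxylase gene, read 128.3 in normoxia and 589.7 at 6 h (difference 1.96), and EGLN1, which encodes the main sensor in most cells, read 430.3 and 1276 (difference 1.5). The third family member, EGLN2, was at 1583 and 1646 (difference 0.06). BHLHE40, which encodes a transcriptional repressor of the clock and of lipid genes, was at 2993 and 16513 (difference 2.45), and ANKRD37 was the fourth. CITED2, whose product competes with HIF-1α for its coactivator, differed by 0.61, and SIAH2, a ubiquitin ligase gene that acts on the EGLN proteins, by 0.65.

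HIF1A itself read 956 in normoxia and 824 at 6 h, a difference of -0.21, and EPAS1 read 2969 and 3757, a difference of 0.34. Both subunits are known to be controlled mainly through the stability of the protein, which arrays do not measure. ARNT, the shared partner, differed by 0.18, ARNT2 by -0.01, VHL, the recognition subunit of the ligase that removes hydroxylated HIF, by 0.07, and HIF1AN, the asparaginyl hydroxylase gene, by -0.07. BHLHE41, a close relative of BHLHE40, was dim at 100.1 and 141 (difference 0.39), P4HTM, a membrane prolyl hydroxylase gene, differed by 0.27, and HIF3A was below the filter on both arrays.

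The study depleted the NDRG family member NDRG3 in other arrays. In this family 1 of 3 measured members was at least 2-fold higher (0.899% over all measured genes) and 0 lower (median 0.10). NDRG1, a stress-responsive gene long used as a marker of hypoxia, read 3344 in normoxia and 28731 at 6 h (difference 3.09). NDRG3 read 1187 and 1278 (difference 0.10). NDRG2 was at 152 and 155, and NDRG4 was below the filter on both arrays.

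Genes of glucose uptake and glycolysis differed by very different amounts. All 20 members were measured, with 7 at least 2-fold higher (0.899% over all measured genes), 0 lower (0.0529%) and a median of 0.70. All 20 differences were above 0, against 46.8% over all measured genes, but the lowest, 0.07 for PFKM, was smaller than the median absolute difference of 0.11 between the 2 hypoxic cultures. SLC2A3, which encodes the glucose carrier GLUT3, read 4077 in normoxia and 41549 at 6 h (difference 3.34), and SLC2A1, for the carrier GLUT1, read 1804 and 8709 (difference 2.25). HK2, the inducible hexokinase gene, was at 864 and 5275 (difference 2.57), whereas HK1, the constitutive one, was at 427 and 563 (difference 0.37). The same unevenness within a step held further along the pathway.

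ALDOC, the brain-type aldolase gene, differed by 2.88 (658 in normoxia and 5029.6 at 6 h), and ALDOA, the widely expressed aldolase, by 0.76 (6577 and 11193). ENO2, the neuronal enolase gene, differed by 2.34 (464 and 2479), and ENO1 by 0.21 (36913 and 42637). PFKFB3, the other bifunctional enzyme of the list, differed by 0.64, and the phosphofructokinases PFKL, PFKM and PFKP by 0.45, 0.07 and 0.50. For hexokinase, aldolase, enolase and the bifunctional enzymes 1 paralogue thus carried a difference of more than 2 and its partner one below 1, while no phosphofructokinase stood apart from the others in this way. GAPDH, often used as a reference gene although it belongs to the pathway, and LDHA, which makes lactate, differed by 0.32 (22661 and 28292) and 0.18 (30575 and 34535). PGK1, the first ATP-yielding enzyme of the pathway, was at 7408 and 15164 (difference 1.03).

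**Figure D3:**
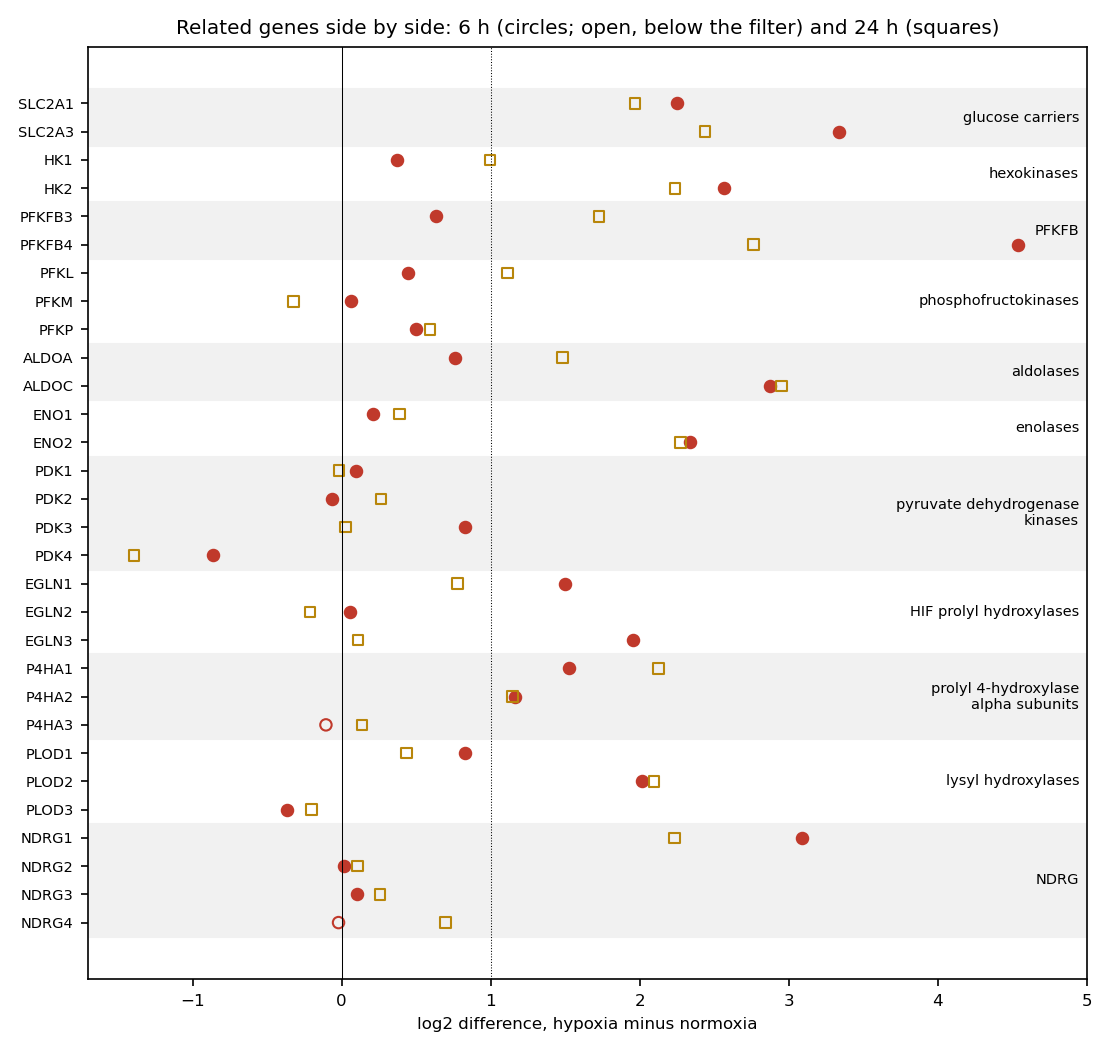
Log2 difference, hypoxia minus normoxia (x axis), for related genes grouped by family (y axis), 1 difference per point: circles, 6 h (open where the gene was below the filter); squares, the separate 24 h pair of the second platform. Both carriers lie beyond 2 at 6 h, as does 1 of each pair of hexokinases, PFKFB enzymes, aldolases and enolases, while the pyruvate dehydrogenase kinases run from -0.86 for PDK4 to 0.83 for PDK3.

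Genes downstream of glycolysis and of glycogen metabolism gave single 2-fold differences, against 0.899% of all measured genes higher and 0.0529% lower. Of 15 measured genes of lactate handling and pyruvate dehydrogenase control, 1 was at least 2-fold higher and 0 lower, with a median of -0.14. That gene was SLC16A3, which encodes the lactate exporter MCT4, at 7893 in normoxia and 16926 at 6 h (difference 1.10). The kinases that switch off pyruvate dehydrogenase went separate ways, with PDK3 at 548 and 999 (difference 0.83), PDK4 at 1376 and 742 (difference -0.86) and PDK1, often listed as a HIF target, dim at 144 and 156 (difference 0.10). Among 12 measured glycogen genes 1 was at least 2-fold higher and 0 lower (median 0.24), namely PPP1R3C, which targets a phosphatase to glycogen and favours its synthesis, at 917 and 4613 (difference 2.29). PGM1, GBE1 and UGP2, enzymes on the route into glycogen, differed by 0.81, 0.75 and 0.59.

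The genes of acid handling gave 1 of 8 at least 2-fold higher (0.899% over all measured genes) and 0 lower (median 0.01). It was CA9, which encodes a carbonic anhydrase of the cell surface and is used as a marker of hypoxic tumour, at 940.0 in normoxia and 7582 at 6 h (difference 2.97). CA12, its relative, was dim at 139.6 and 194 (difference 0.39), and CA2, a cytosolic carbonic anhydrase gene, was at 2157 and 1799 (difference -0.26).

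Genes of mitophagy and mitochondrial adaptation included 4 of 13 measured at least 2-fold higher and 0 lower (median 0.23). BNIP3 and BNIP3L, whose products sit on the outer mitochondrial membrane and recruit the autophagy machinery, read 3687 and 519 in normoxia and 18690.2 and 3304 at 6 h (differences 2.33 and 2.60). ULK1, the kinase that starts autophagy, differed by 1.23 and MXI1, a MYC antagonist, by 1.05. The respiratory chain and ATP synthase genes, all 26 measured, had 0 at least 2-fold apart in either direction. Their differences ran from -0.26 for ATP5MC1 to 0.33 for UQCRC1, with a median of -0.06. The 18 genes of the tricarboxylic acid cycle also had 0, with a median of 0.01, and the highest of them was IDH2 at 0.68. Across the whole measured set 0.899% passed 2-fold upward and 0.0529% downward, so a count of 0 in lists this short is unremarkable.

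Among 10 measured collagen modifying genes, 5 stood at least 2-fold higher and 0 lower, against 0.899% and 0.0529% over all measured genes. The list median was 0.99 (0.20 over all 13 in the table). LOX, which cross-links collagen, was at 279 in normoxia and 1752 at 6 h (difference 2.52), and it stood higher still on the later arrays, at 5764 after 12 h. PLOD2, a lysyl hydroxylase gene, was at 1058 and 4378 (difference 2.02), and the prolyl 4-hydroxylase subunits P4HA1 and P4HA2 differed by 1.53 and 1.16. ERO1A, which makes the oxidase that feeds disulfide bonds into secreted proteins, differed by 1.56. These enzymes also split by paralogue, since PLOD1 differed by 0.82 and PLOD3 by -0.37, while P4HA3, LOXL1 and LOXL2 were below the filter on both arrays. The prolyl and lysyl hydroxylases use oxygen as a substrate, as do the histone demethylases of the JmjC class. Of 8 measured members of that class KDM3A, which acts on histone H3 lysine 9, was the 1 at least 2-fold higher (485 in normoxia and 1144 at 6 h, difference 1.18), 0 were lower and the median was 0.25.

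**Figure D4:**
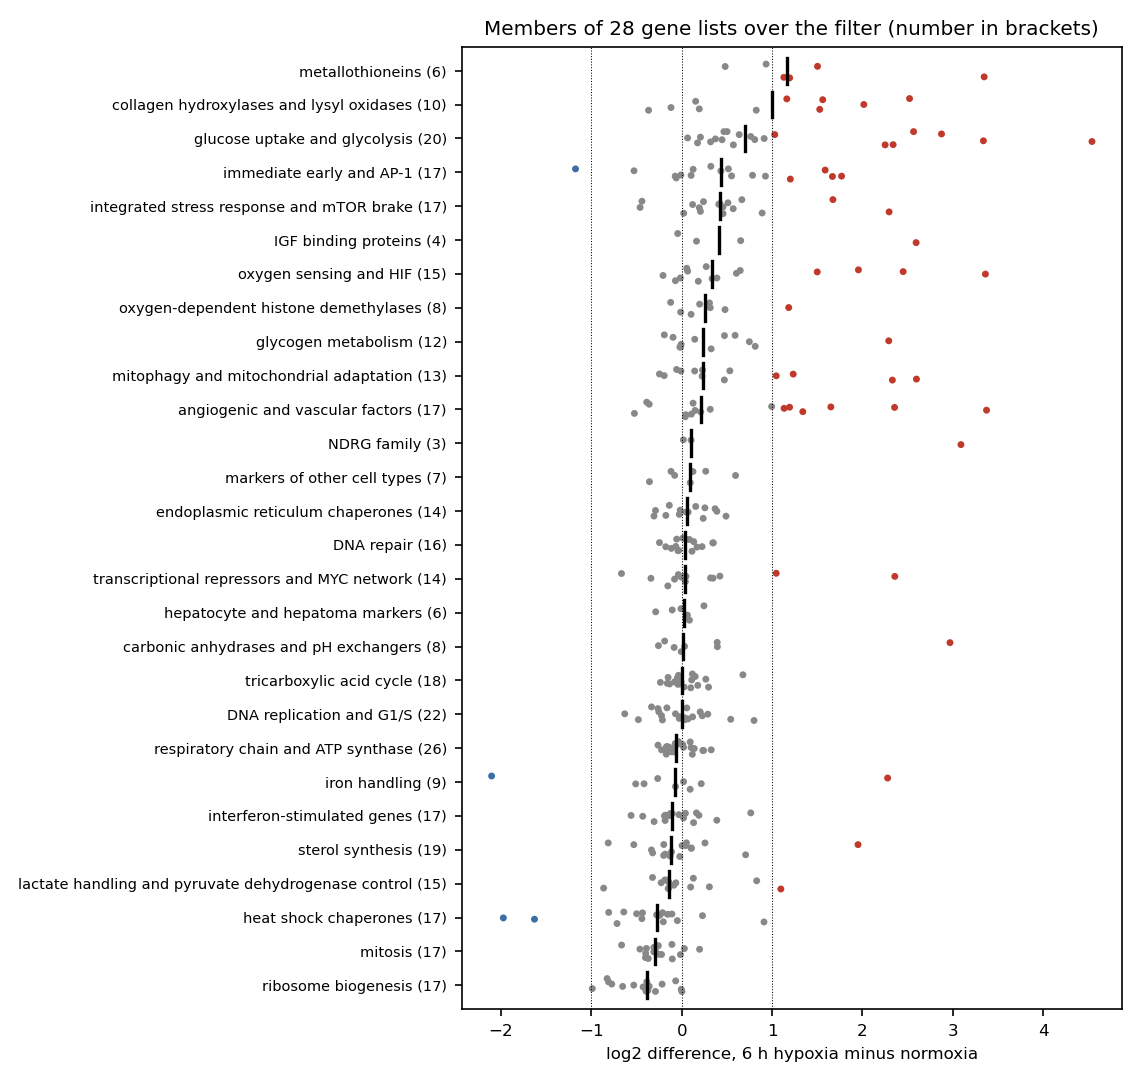
Log2 difference at 6 h (x axis) of every measured member of 28 gene lists (y axis, number of measured members in brackets), 1 point per gene, red at least 2-fold higher, blue at least 2-fold lower, grey between; vertical spread within a row is for legibility and the bar is the median. With this filter medians run from 1.16 for metallothioneins to -0.39 for ribosome biogenesis, and 15 of the 17 heat shock chaperones lie left of 0.

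Secreted and vascular factors were led by ADM. Of 17 measured members of 21, 6 were at least 2-fold higher and 0 lower (median 0.21), against 0.899% and 0.0529% over all measured genes. STC2 and STC1, which encode stanniocalcins, differed by 2.36 (933 in normoxia and 4906 at 6 h) and 1.65 (115 and 429, the normoxia value being below the filter). EFNA1, an ephrin ligand gene, differed by 1.34 and the chemokine receptor gene CXCR4 by 1.13. VEGFA, the best known hypoxia-inducible angiogenic factor, read a dim 161 in normoxia and 354 at 6 h. These readings are more than 2-fold apart. With the offset added to both, the ratio was 1.99-fold, so the offset alone kept VEGFA just short of the 2-fold count. VEGFB and VEGFC differed by 0.21 and 0.15, and FGF2, a fibroblast growth factor gene, by -0.52 (709 and 483). IGFBP3, which binds insulin-like growth factors, was the 1 of 4 measured IGF binding protein genes at least 2-fold higher, at 1216 and 7507 (difference 2.59); 0 were lower and the median was 0.41 (0.13 over all 6 in the table).

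Stress genes differed by pathway. Of 17 genes of the integrated stress response and of mTOR restraint, 2 were at least 2-fold higher and 0 lower. Over all measured genes the shares were 0.899% and 0.0529%. Of the 17 genes, 15 were above 0 (median 0.42). DDIT4, whose product REDD1 restrains mTOR, read 6280.4 in normoxia and 30958 at 6 h (difference 2.30), and DDIT3, which encodes the factor CHOP, read 334 and 1137 (difference 1.67). ATF4, upstream of DDIT3, differed by 0.24, and its targets ASNS and TRIB3 by 0.57 and 0.46, but SLC7A11 and ATF5 by -0.46 and -0.44. The endoplasmic reticulum chaperones had 0 of 14 measured members at least 2-fold apart (median 0.06), with HSPA5, which encodes the chaperone BiP, at -0.31 and HERPUD1 at 0.49.

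Immediate early genes were mixed. Of 17 measured members of 20, 4 were at least 2-fold higher and 1 lower, against 0.899% and 0.0529% over all measured genes. The median was 0.43, or 0.25 over all 20 in the table. JUN and FOS, which encode partners in the AP-1 factor, read 699 and 552 in normoxia and 2290.5 and 1724 at 6 h (differences 1.67 and 1.59). SPRY1, a feedback inhibitor of growth factor signalling, differed by 1.77 and IER3 by 1.20. EGR1, by contrast, read 205 and 195 (difference -0.06), and CCN1, which encodes a matrix-associated signalling protein, was the lower gene at 1492 and 643 (difference -1.18). IL6, a cytokine gene outside this list, was also lower, at 1149 and 459.8 (difference -1.26).

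Metallothioneins, small proteins that bind zinc and copper, had a median of 1.16 over the 6 measured members and 0.71 over all 10 in the table. At least 2-fold higher were 4 of the 6, and 0 were lower, against 0.899% and 0.0529% over all measured genes. MT1X read 2048 in normoxia and 21145 at 6 h (difference 3.35), MT2A 12590.2 and 27601 (difference 1.13), and MT1A 8223 and 23372 (difference 1.5). All 3 were higher again after 12 h, at 40815, 54864 and 33586. The genes of this family are near-identical in sequence, so a probe for one may read others, and MT3, MT1M, MT1H and MT1B were below the filter on both arrays.

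Genes of iron handling held opposite extremes. HMOX1, which encodes the heme-degrading enzyme heme oxygenase 1, read 424 in normoxia and 2179.5 at 6 h (difference 2.28). TFRC, which encodes the transferrin receptor that brings iron into cells, read 25775 and 5971, the lowest difference of all measured genes at -2.10, or 4.3-fold lower. The remaining hypoxic arrays of the platform were below normoxia for TFRC too but lay at separate levels, 5561 in shGFP cells at 12 h and 4774 in shHIF1A cells at 12 h, against 12256 and 12141 in shNDRG3 cells at 6 h and 12 h. Of 9 measured members HMOX1 and TFRC were the 1 at least 2-fold higher and the 1 lower, against 0.899% and 0.0529% over all measured genes. The list median was -0.07. The ferritin genes FTL and FTH1 differed by 0.22 and 0.09. SLC11A2, the iron carrier gene DMT1, differed by -0.51, and HMOX2, for heme oxygenase 2, was dim and differed by -0.42; the 5th percentile of all measured genes was -0.39.

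Heat shock chaperones lay mostly below their normoxic levels. All 17 members were measured, 15 lay below 0 and the median was -0.28. At least 2-fold lower were 2 and higher 0, against 0.0529% and 0.899% over all measured genes. HSPA1A and HSPA1B, the stress-inducible HSP70 genes, read 8157 and 14135 in normoxia and 2053 and 4548 at 6 h (differences -1.97 and -1.63), and these near-identical copies cannot be counted as separate evidence. HSPB8, a small heat shock protein gene, differed by -0.81, HSPA8, the constitutive HSP70, by -0.72, and the HSP90 genes HSP90AA1 and HSP90AB1 by -0.11 and -0.16. The 2 members above 0 were HSPE1, which encodes the mitochondrial co-chaperonin, at 1724 and 3270.2 (difference 0.91), and SERPINH1, the collagen chaperone gene, at a difference of 0.23.

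Ribosome biogenesis genes had the lowest median of the 28 lists, -0.39 over 17 measured members of 19 in the table, although 0 of them were at least 2-fold apart. The assembly factor genes RRS1, NOP16 and BYSL were at 2548, 2203 and 1829 in normoxia and 1268, 1229 and 1029.8 at 6 h (differences -0.99, -0.83 and -0.81). PES1, at 0.00, was the 1 measured member not below 0. MYC, known as a driver of ribosome production, differed by -0.34 (7549.6 and 5957). In its list of repressors and MYC partners 2 of 14 were at least 2-fold higher (ZNF395 at 2.36 and MXI1) and 0 lower. Over all measured genes the shares were 0.899% and 0.0529%, and the list median was 0.03. ID3, an inhibitor of helix-loop-helix factors, was the lowest of that list at -0.67.

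Growth and maintenance genes had few 2-fold differences at 6 h, as did all measured genes, of which 0.899% were higher and 0.0529% lower. Mitosis genes, 17 measured, had 0 at least 2-fold apart and a median of -0.29, with 2 above 0 (MKI67 and CCNB2) and BUB1B lowest at -0.67. In bulk RNA a smaller share of dividing cells and less of each mRNA per cell cannot be told apart. DNA replication genes (22 measured, median 0.00) and DNA repair genes (16 measured, median 0.03) had 0 at least 2-fold apart, the cell cycle inhibitor gene CDKN1A being highest at 0.80. Sterol synthesis genes had 1 of 19 at least 2-fold higher and 0 lower (median -0.11). That gene, INSIG2, encodes a brake on the pathway and read 336 and 1393 (difference 1.95), while the enzyme genes HMGCS1 and SQLE differed by -0.81 and -0.53. Interferon-stimulated genes had 0 of 17 at least 2-fold apart (median -0.10), from -0.56 for IFIT2 to 0.76 for ISG20.

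The lower side outside these groups was short. TGFBR3, which encodes the co-receptor betaglycan, read 1699 in normoxia and 803 at 6 h (difference -1.05). GEMIN6, a gene of the complex that assembles spliceosomal particles, and TOR3A, of the torsin family, differed by -0.98 and -0.96. PALS1, a cell polarity scaffold gene, read 1129 in normoxia and 559 at 6 h, but between 855 and 977 on the other 4 hypoxic arrays of the platform, so its difference of -0.97 belongs to 1 array.

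The label of the cells was set against markers. Of 25 hepatocyte and hepatoma markers, 5 reached the filter value on the normoxia array and 6 at 6 h, with 0 at least 2-fold apart. On at least 1 of the 2 arrays 6 of the 25 reached it, against 11348 of all 18153 genes. Their summed intensity was 14729 in normoxia and 15259 at 6 h, most of it KRT8, an epithelial keratin gene, at 11071 and 11568. The liver factor gene FOXA1 read 563 and 559, ALB, for albumin, 229 and 182, and VTN, for the secreted liver protein vitronectin, 375 and 347. AFP, APOA1, TTR and HNF4A were below the filter value on both arrays. Few markers of the labelled cell type thus reached the filter value, and the identity of the cultures was not tested. Of 19 markers of other cell types in the table, 7 reached the filter value in normoxia and 6 at 6 h, and their summed intensity was 16615 and 23617, most of it KRT17, a keratin gene, at 13371 and 20229 (difference 0.60). The endothelial marker genes CDH5, KDR and VWF and the leukocyte marker genes PTPRC and CD3E were below the filter value on both arrays. PECAM1, an endothelial marker gene, and CD68 and CD14, marker genes of myeloid leukocytes, did reach it on at least 1 of the 2 arrays. Their differences were 0.12, 0.27 and -0.36.

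The remaining arrays give the company in which the 6 h values stand. The 12 h, shNDRG3 6 h and shHIF1A 12 h comparisons all use the same normoxia array, so an error in that array enters each of them, and their values are set side by side without a measure of likeness. At least 2-fold higher and lower were 284 (2.49%) and 175 (1.53%) genes at 12 h in shGFP cells, 142 (1.25%) and 35 (0.308%) at 6 h in shNDRG3 cells, and 330 (2.87%) and 231 (2.01%) at 12 h in shHIF1A cells. DDIT4 and FSTL3, which encodes a follistatin-like binder of activins, were higher at 6 h (30958 and 5594) than at 12 h (25203 and 3781), whereas LOX, MT1X and CA9 were higher at 12 h (5764, 40815 and 14246) than at 6 h. On the shHIF1A array at 12 h, CA9 read 4556 and PFKFB4 3814, below the shGFP 12 h values of 14246 and 10522, while ADM read 35364 against 34202 and LOX 11071 against 5764. The series holds no shHIF1A array at 6 h.

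The 24 h pair shares no array with the 6 h pair, but it differs in platform as well as in time, and those cannot be told apart. Of 10369 genes measured in both pairs, 100 were at least 2-fold higher at 6 h and 294 at 24 h (2.69% of the 11635 genes measured at 24 h were higher and 1.95% lower), and 57 were in both sets, 57.0% of the 6 h set and 19.4% of the 24 h set. The 100 genes had a median difference of 1.22 at 24 h, against -0.04 over the 10369, and 95 of them were above 0. Of the 6 lower genes 2 were also at least 2-fold lower at 24 h (33.3% of that set and 0.885% of the 226 at 24 h). They were HSPA1A at -3.32 and HSPA1B at -2.68, near-identical copies that cannot be counted as separate evidence. TFRC was at -0.73.

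Over all measured genes at 6, 12 and 24 h in shGFP cells, 0.899%, 2.49% and 2.69% were at least 2-fold higher and 0.0529%, 1.53% and 1.95% lower. Of the list members, the glycolysis genes at least 2-fold higher numbered 7, 12 and 12 of the 20. Higher metallothionein genes were 4 of 6, 6 of 7 and 3 of 6. Higher genes of mitophagy and mitochondrial adaptation were 4 of 13, 5 of 14 and 2 of 14. The heat shock chaperone genes at least 2-fold lower numbered 2, 7 and 7 of the 17. For ribosome biogenesis the lower genes were 0 of 17 measured, then 9 and 3 of 18, and for mitosis 0, 6 and 1 of 17.

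Several genes that stood out at 6 h did not at 24 h. HMOX1 was at 713 in the normoxia of the second platform and 602 after 24 h (difference -0.23, against 2.28 at 6 h), and FSTL3 differed by -0.26 against 1.28. EGLN3 was below the filter on the second platform, at 166 and 182, so its difference of 0.11 there is one between values near background. The opposite held for ATF3, which encodes a stress factor downstream of ATF4 and read 255 in normoxia and 296 at 6 h (difference 0.19, against 2.81 at 24 h), and for the chemokine gene CXCL8 (0.04 against 2.69).

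**Figure D5:**
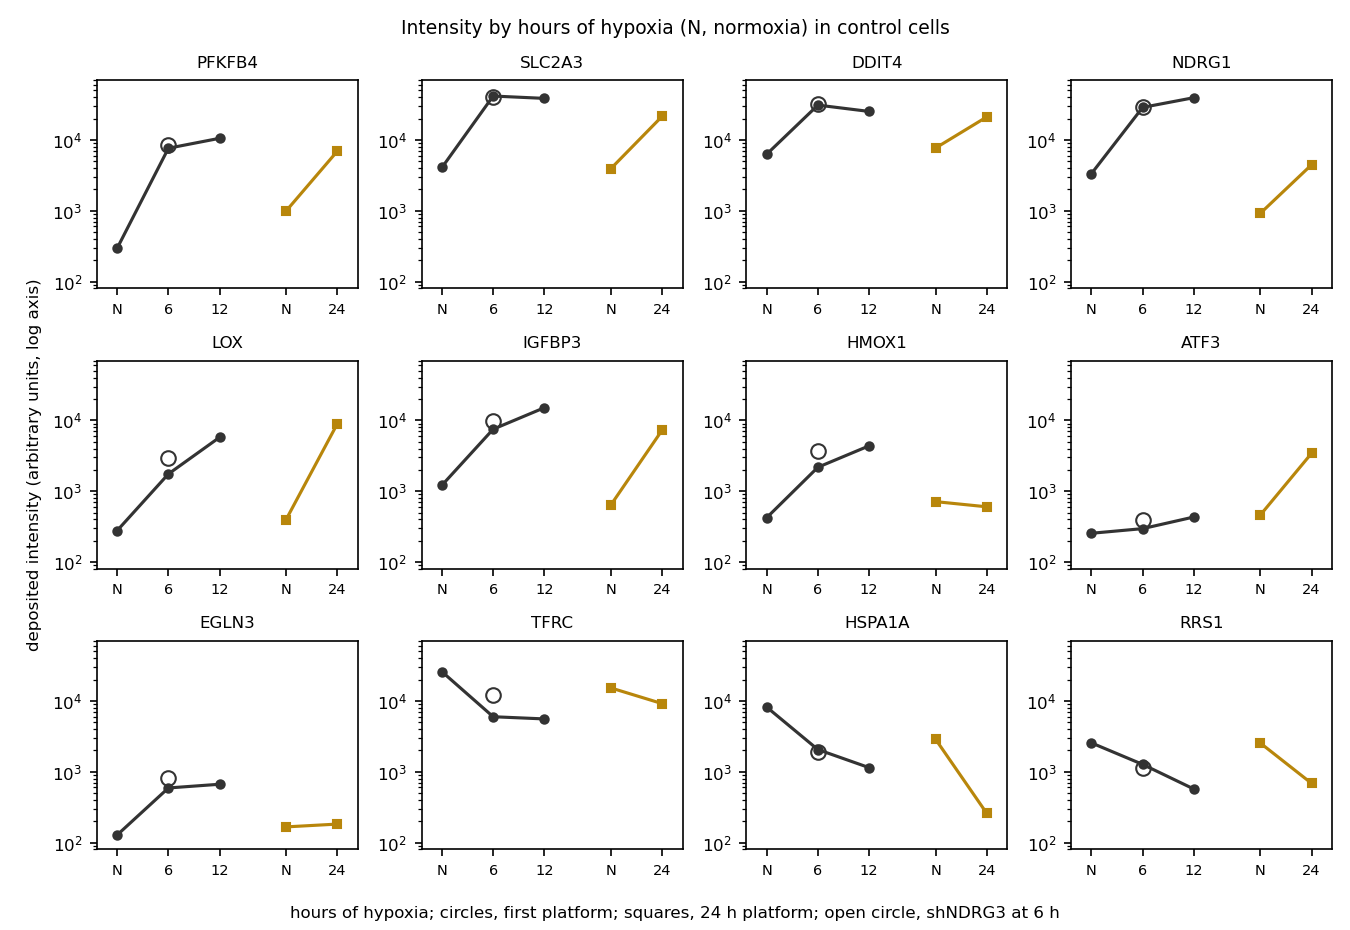
Deposited intensity (y axis, arbitrary units, log axis) of 12 genes by hours of hypoxia (x axis; N, normoxia) in shGFP cells, 1 array per point: circles, first platform; squares, the 24 h pair of the second platform; open circles, shNDRG3 at 6 h. Most of the distance from N to 12 h is already covered at 6 h for PFKFB4, SLC2A3, NDRG1 and TFRC, DDIT4 is higher at 6 h than at 12 h, and ATF3 is close to N at 6 h (255 and 296) and well apart from it at 24 h.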

How the data were processed

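RNA from each culture was amplified from 200 ng and labelled with biotin for Illumina arrays, per the labels' protocols. The authors deposited a gene-level table with intensity on a linear scale for all 9 arrays. Which scanner, software and normalization were used is not given in the sources used here. On the first platform, sorted values of its 29377 probes differed between arrays by at most 0.0269 on the log2 scale, which is what quantile normalization would leave, and the lowest was 58.0; whether background was subtracted is not given. Signal over background and the number of arrays, not depth, limit the precision. Of 18153 genes, 12770 equalled 1 probe of that platform's probe table by value alone, within 0.0002 of the gene's highest value or an intensity of 0.02, and others may be means of probes.

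Gene names were updated through RefSeq synonyms: 15058 were current, 2282 were renamed through 1 synonym and 813 kept as filed. Differences of log2(intensity + 32) were taken within a platform with no further scaling, over genes at or above the 40th percentile (127.3 on the first platform and 210.2 on the second) on at least 1 compared array. With 1 array per group no test was run. Alternatives covered the filter, the offset, background subtraction (5th percentile of each array, floor of 16), median centring, genes equal to 1 probe, the fold threshold and the promoter window. The scripts (Python 3.11.15, pandas 2.3.3, numpy 2.4.6) were tested on simulated data. Promoter windows came from RefSeq (GRCh38.p14).

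The comparison and the 28 gene lists were chosen with earlier results of these data known. The genes named are the 20 largest positive and 10 largest negative differences among genes with settled names, all members of the oxygen sensing and NDRG lists, up to 4 members of every other list with the largest absolute difference, and some of the genes at least 2-fold apart, in a list or not, chosen with their values in view. A further set was picked with its values in view: ALDOA, ENO1, GAPDH, HK1, LDHA, PFKFB3, PFKL, PFKM, PFKP, PDK1, PLOD1, PLOD3, P4HA3, LOXL1, LOXL2, VEGFA, VEGFB, VEGFC, FGF2, CXCL8, ATF3, ATF4, ATF5, ASNS, TRIB3, SLC7A11, EGR1, FTH1, FTL, HSPA8, HSP90AA1, HSP90AB1, MT1B, MT1H, MT1M, MT3, PES1, MYC, MKI67, CCNB2, SERPINH1 and the markers of cell types other than ALB, VTN, KRT17, PECAM1, CD68 and CD14. One member of the list of vascular factors enters its counts and median but is not reported here by name.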

Additional observations from a re-analysis of the deposited data

Results flagged for a closer look

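CCN1, which encodes a matrix-associated signalling protein, stood out because its difference had opposite signs at 6 h and 24 h. It was lower at 6 h (1492 in normoxia and 643 in hypoxia, difference -1.18) and higher at 24 h (509.5 and 1132, difference 1.10). The other hypoxic arrays of the first platform were below its normoxia array too, with 508 in shGFP cells at 12 h and 425 in shNDRG3 cells at 6 h. The contrast between 6 h and 24 h was not tested, since each rests on 1 array a side, and time and platform cannot be told apart.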

How the results depend on the processing

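The counts of 102 higher and 6 lower genes were unaltered with no filter and with a filter at the 60th percentile. They were 115 and 9 with an offset of 1, 84 and 5 with the largest offset tried, 105 and 6 after median centring, and 77 and 6 among genes equal to 1 probe. Background subtraction moved them most, to 299 higher and 193 lower, keeping all 102 and all 6 and adding 384 genes. The threshold moved the shares of 0.899% and 0.0529% to 2.31% and 1.13% at 1.5-fold, and to 0.326% and 0.0264% at 3-fold. List members at least 2-fold apart numbered 45 higher, and 34 to 58 over these settings other than the threshold. In a window of 150 bases before the start, 61.5% of the higher genes with a window and 50.5% of measured genes held a match. No named gene at least 2-fold apart changed sign under these settings. Of 134 named genes, 38 moved by more than 0.18 (the SD of the differences between the 2 hypoxic cultures) under background subtraction and 16 with the largest offset. Of 28 list medians, 4 moved by more than 0.18 with no filter, 6 with the filter at the 60th percentile, 5 among genes equal to 1 probe and 2 under background subtraction, so the order of the lists depends on the filter: at the 60th percentile the median of IGF binding proteins was 1.62, that of the NDRG family was also above 1, and the median of metallothioneins was 1.16. No paired analysis was possible because each group holds 1 array. Dim genes, among them PPFIA4, STC1 and EGLN3 in normoxia, carry differences set partly by background, and 1 array a side leaves the spread between cultures unknown.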

Other observations

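Of the 102 genes at least 2-fold higher at 6 h, 57 belong to none of the gene lists, and those described here were chosen after their values were seen. Several encode regulators of growth or survival. BIK, a pro-apoptotic BCL2 relative, read 268 in normoxia and 967 at 6 h (difference 1.74), and NOL3, an inhibitor of cell death, read 575 and 1288 (difference 1.12). CCNG2, which encodes an unconventional cyclin of non-dividing cells, differed by 1.23, and the long non-coding RNA gene H19 by 1.02. GDF15, a stress-induced secreted factor, read 672 and 2253 (difference 1.70), and its 24 h difference of 4.22 on separate arrays was larger.

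Another handful acts in nutrient metabolism or at the cell surface. The arrestin-related genes TXNIP, which restrains glucose uptake, and ARRDC3 differed by 1.33 (2013 and 5097) and 1.14, in cells whose glucose carrier genes were higher too. NAMPT, which encodes an enzyme of NAD synthesis, differed by 1.08, GPT2, a mitochondrial alanine aminotransferase gene, by 1.12, and GLRX, a glutaredoxin gene, by 1.29. STBD1, which tethers glycogen to membranes, differed by 1.10. ITGA5, a subunit of the fibronectin receptor, read 1369 and 4146 (difference 1.58). F3, the tissue factor that starts coagulation, read 1095 and 2393 (difference 1.11), and at 24 h both its normoxic and its hypoxic reading were 492.

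Transcription regulators of the group included the corepressor gene RCOR2, at 206 and 1137 (difference 2.30), the epithelial factor gene ELF3 (1.48), ARID3A (1.32) and the repressor gene NFIL3 (1.12). At 24 h they differed by 0.62, 0.95, -0.03 and 0.99, so all 4 were under 2-fold there, with time and platform again inseparable.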
